A study of Mus musculus with 6 samples.

Results

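The complement genes described here are C1qa, C1qb, C1qc, C3, C4a, Hc, C3ar1 and C5ar1, 8 of the 753 gene rows assayed in mouse macrophages cultured from bone marrow. They were picked by name because factor H regulates complement. They cover the initiating protein C1q, the later components that the panel holds, and C3ar1 and C5ar1, receptors for the small peptides cut from C3 and C5. RNA of FHKO macrophages, from factor H knockout mice of 8 to 10 weeks (n = 3 libraries), was set beside RNA of control macrophages from wild-type (WT) mice (n = 3 libraries), whose age the labels do not state. Neither group received a treatment, and strain background and knockout allele are also unstated in the labels. These do not say either whether the libraries of a group came from separate animals or cultures, so p-values measure only the spread between these libraries. No check of the genotype labels against RNA levels was made.

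Complement is a chain of proteins in plasma and tissue that tags targets for uptake and attack. C1q, built from A, B and C chains, binds antibodies and dying cells and starts the classical pathway through C4, whereas the alternative pathway starts by the slow turnover of C3 and is held back by factor H. Liver cells make most plasma C3 and C5, and macrophages are known as a main source of C1q. The peptides C3a and C5a act through receptors that include C3ar1 and C5ar1, which sit on myeloid cells.

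Values are the deposited normalised counts of 1 row per gene. Recovered whole counts summed to between 717503 and 1348062 per library, although the recovery did not pass a check in FHKO 2 and control 2. The values had been scaled so that the geometric mean of 16 reference genes, not each gene, was equal in all libraries. A gene was called detected in a library when its recovered count exceeded the mean plus 2 SD of the 8 negative-control rows of that library, a limit of 16.5 to 29.1 normalised counts. Counts of different genes come from different probes and were not set against each other as amounts of RNA. All 8 macrophage markers on the panel were detected in every library, from Mertk (66.9 to 127 normalised counts) to Cd68 (20835 to 24579). In these bulk samples fewer cells of a type and less RNA per cell cannot be told apart.

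Promoter windows were matched by symbol in the RefSeq promoter table (build GRCm38.p6), which gave sequences for 6 of the 8 genes. C1qb, C1qc and C1qa stand next to each other on chromosome 4 in the RefSeq gene table (assembly GRCm38.p6). The 250 bases before the annotated start are shown for C1qb and C1qc, whose ratio varied least between libraries, and for the receptor genes C3ar1 and C5ar1, which differed in whether the groups overlapped. The windows lie at chr4:136886201-136886450 for C1qb, chr4:136892915-136893164 for C1qc, chr6:122856158-122856407 for C3ar1 and chr7:16259339-16259588 for C5ar1, all on the minus strand. Capitals mark GAGGAA, a core of the purine-rich motif of ETS factors such as PU.1, and TGCTGA, a half-site of Maf factors, on either strand.
C1qb: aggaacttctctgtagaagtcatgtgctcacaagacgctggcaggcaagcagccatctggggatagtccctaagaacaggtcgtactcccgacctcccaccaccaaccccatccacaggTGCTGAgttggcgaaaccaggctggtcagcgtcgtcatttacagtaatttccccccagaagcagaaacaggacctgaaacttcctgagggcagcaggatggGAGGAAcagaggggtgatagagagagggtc
C1qc: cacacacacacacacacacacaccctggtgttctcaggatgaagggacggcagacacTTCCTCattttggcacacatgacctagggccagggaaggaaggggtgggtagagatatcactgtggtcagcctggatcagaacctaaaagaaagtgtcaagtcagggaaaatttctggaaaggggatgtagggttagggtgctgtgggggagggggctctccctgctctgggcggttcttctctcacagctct
C3ar1: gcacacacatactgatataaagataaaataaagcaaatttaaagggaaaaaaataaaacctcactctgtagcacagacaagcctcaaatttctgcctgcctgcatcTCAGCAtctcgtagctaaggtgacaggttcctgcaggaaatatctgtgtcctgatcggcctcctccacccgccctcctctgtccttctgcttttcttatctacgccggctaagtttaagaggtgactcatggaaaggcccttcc
C5ar1: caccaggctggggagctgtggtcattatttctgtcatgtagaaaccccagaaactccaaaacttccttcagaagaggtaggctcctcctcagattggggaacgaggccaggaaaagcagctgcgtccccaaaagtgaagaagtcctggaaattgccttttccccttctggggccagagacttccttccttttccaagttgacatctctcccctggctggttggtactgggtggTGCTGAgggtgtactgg
The letters GAGGAA were found in C1qb, 30 bases before the start, and in C1qc on the opposite strand, 193 bases before it. The letters TGCTGA were found in C1qb at 131 bases, in C3ar1 on the opposite strand at 144 bases and in C5ar1 at 17 bases before the start. Of the windows not shown, C3 held TGCTGA on the opposite strand at 182 bases, and Hc held neither motif. Of 32536 distinct promoter windows of this length, 23.4% held GAGGAA and 16.1% held TGCTGA on either strand. These motifs do not overlap in their letters, they were chosen after the sequences had been seen, and a match is a description only.

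Untreated macrophages of both genotypes held RNA of all 3 C1q chains and of C3ar1 and C5ar1 far above background. Counts of C3 were 8.38 to 18.1 times the negative-control mean, and C4a and Hc gave no reliable signal. C1qa, C1qb, C1qc, C3, C3ar1 and C5ar1 were detected in 6 of 6 libraries. C4a was detected in 0 of 6 libraries and Hc in 1 of 6.

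**Figure D1:**
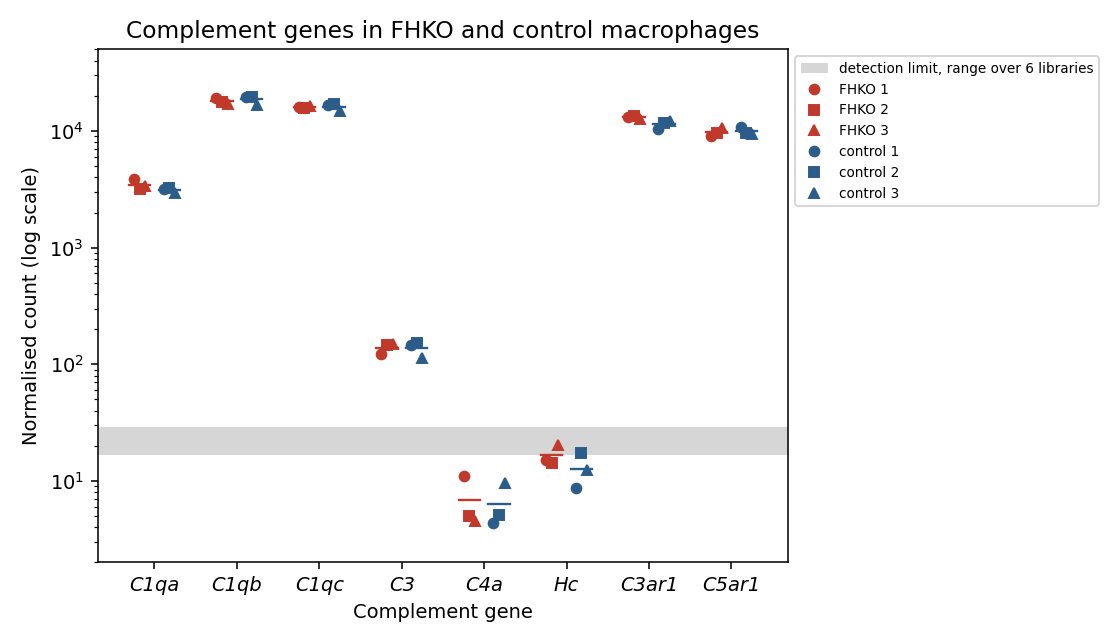
Normalised counts (log scale) of the 8 complement genes in each FHKO and control library, with points for single libraries, a line for the group mean and a grey band for the detection limits of the 6 libraries (16.5 to 29.1). C1qa, C1qb, C1qc, C3ar1 and C5ar1 lay between 2919 and 19644 in every library and C3 between 114 and 154, whereas C4a lay below the band.

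The chains of C1q came first in the order of the pathway. C1qb, the B chain, was at 19248, 17597 and 17182 normalised counts in FHKO libraries 1 to 3, against 19644, 19616 and 16681 in control libraries 1 to 3. The groups overlapped, with control 3 lowest and control 1 highest. C1qb averaged 18009 ± 1092 in FHKO and 18647 ± 1703 in control macrophages (SD, n = 3 each), a log2 difference of -0.05 (SE 0.090, limma adjusted p = 0.760). Its 95% confidence interval ran from -0.26 to 0.16, or 0.836-fold to 1.12-fold.

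C1qc, the C chain, was at 16044, 15644 and 16484 in FHKO libraries, against 16580, 16910 and 14818 in control libraries. The FHKO values fell inside the control range, and control 3 was again lowest. C1qc averaged 16057 ± 420 in FHKO and 16102 ± 1125 in control macrophages (SD, n = 3 each), a log2 difference of -0.002 with an interval of -0.18 to 0.17 (limma, adjusted p = 0.984).

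C1qa, the A chain, was at 3852, 3180 and 3354 in FHKO libraries, against 3204, 3276 and 2919 in control libraries. FHKO 1 and FHKO 3 lay above all controls, and FHKO 2 lay among them. C1qa averaged 3462 ± 349 in FHKO and 3133 ± 189 in control macrophages (SD, n = 3 each), a log2 difference of 0.14 with an interval of -0.09 to 0.37 (limma, adjusted p = 0.399). The difference was 0.06 without FHKO 1 and turned to -0.15 with library medians set equal. Together the counts of the C1q chains took 3.25% to 3.95% of each FHKO library, against 3.34% to 3.95% of each control library.

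C3, the central component on which all activation pathways converge, was at 122, 146 and 149 normalised counts in FHKO libraries, against 145, 154 and 114 in control libraries. The groups overlapped fully, and the lowest values belonged to control 3 and FHKO 1. C3 averaged 139 ± 15.2 in FHKO and 138 ± 20.8 in control macrophages (SD, n = 3 each), a log2 difference of 0.02 (SE 0.159, limma adjusted p = 0.957). These values rest on 88 to 176 recovered counts, 8.38 to 18.1 times the negative-control mean of the same library. Counting error alone gives a coefficient of variation of 8.96% in FHKO and 9.08% in control, beside the measured 10.96% and 15.1%. The interval of the log2 difference was -0.35 to 0.39, or 0.783-fold to 1.31-fold. The direction for C3 turned with library medians set equal (-0.27) and after quantile normalisation (-0.30), and leaving out single libraries gave -0.11 (without control 3) to 0.11 (without FHKO 1).

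C4a, a mouse C4 gene that the RefSeq table lists as a transcribed pseudogene with C4b among its synonyms, was at 11.1, 4.99 and 4.49 in FHKO libraries, against 4.36, 5.05 and 9.52 in control libraries. These are 3 to 10 recovered counts, all below the negative-control mean of their library. The mouse genes for C4 are near-identical copies, and the labels do not say which of them the probe binds. Hc, which encodes C5, was at 15.2, 14.2 and 20.2 in FHKO libraries, against 8.73, 17.2 and 12.4 in control libraries. Its 6 to 18 recovered counts were 0.565 to 2.03 times the negative-control mean. Control 2 was the library above the limit, with 17 counts against a limit of 16.4, whereas FHKO 3 had 18 against 23.5. The recovery of whole counts did not pass a check in control 2, so this narrow margin is uncertain. C4a and Hc failed the filter for testing (at least 20 normalised counts in 3 or more libraries), so no fold change is given for them. C4a RNA was not told apart from background in any library, and Hc was not in 5 of 6 libraries.

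The receptor genes C3ar1 and C5ar1 both gave counts far above background, and C3ar1 was the gene among the 8 whose groups did not overlap. C3ar1, the receptor of C3a, was at 13247, 13380 and 12747 normalised counts in FHKO libraries, against 10490, 11681 and 12151 in control libraries. The lowest FHKO library, FHKO 3, lay above the highest control, control 3, and control 1 lay lowest. C3ar1 averaged 13124 ± 334 in FHKO and 11441 ± 856 in control macrophages (SD, n = 3 each), 1.15-fold. Its log2 difference was 0.20 with an interval of 0.02 to 0.38, and it missed the threshold over all genes (limma, adjusted p = 0.194, and unadjusted p = 0.0347). Without 1 library the difference ran from 0.14 (without control 1) to 0.25 (without control 3), with a limma adjusted p of 0.135 to 0.389. The direction turned to -0.10 with library medians set equal. Csf1r, the receptor for the growth factor of macrophages, also had groups that did not overlap, with means of 6986 in FHKO and 5812 in control (log2 difference 0.26, limma adjusted p = 0.141). The 8 macrophage markers on the panel summed to 50985 to 53321 in FHKO and 48723 to 51945 in control libraries, with none at a count of 0. Of these markers 7 of 8 lay above a log2 difference of 0, beside 71.8% of all tested genes, and 2 of 8 lay above the median tested gene. Adgre1, the F4/80 gene, also had groups that did not overlap (0.11), and Cd68 had -0.07. Their part in the C3ar1 result was not tested.

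C5ar1, the receptor of C5a, was at 9105, 9678 and 10598 in FHKO libraries, against 10791, 9528 and 9392 in control libraries. The groups overlapped, with FHKO 1 lowest and control 1 highest. C5ar1 averaged 9793 ± 753 in FHKO and 9904 ± 772 in control macrophages (SD, n = 3 each), a log2 difference of -0.02 with an interval of -0.23 to 0.20 (limma, adjusted p = 0.935).

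Of the 6 tested complement genes 0 passed a limma adjusted p of 0.05, with 1 (C3ar1) at an unadjusted p under 0.05. Over all 490 tested genes 0.204% passed the adjusted threshold, which is the 1 gene Il1rn, and 22.4% had an unadjusted p under 0.05. Groups did not overlap for 1 of the 6 complement genes, beside 29.2% of all tested genes in either direction and 22.9% upward and 6.33% downward, so this share is close to or below the background. The log2 differences of the 6 genes ran from -0.05 to 0.20 with a median of 0.01, beside a median of 0.16 over all tested genes, of which 71.8% lay above 0. C3ar1 lay above the median tested gene, and the other 5 lay below it.

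**Figure D2:**
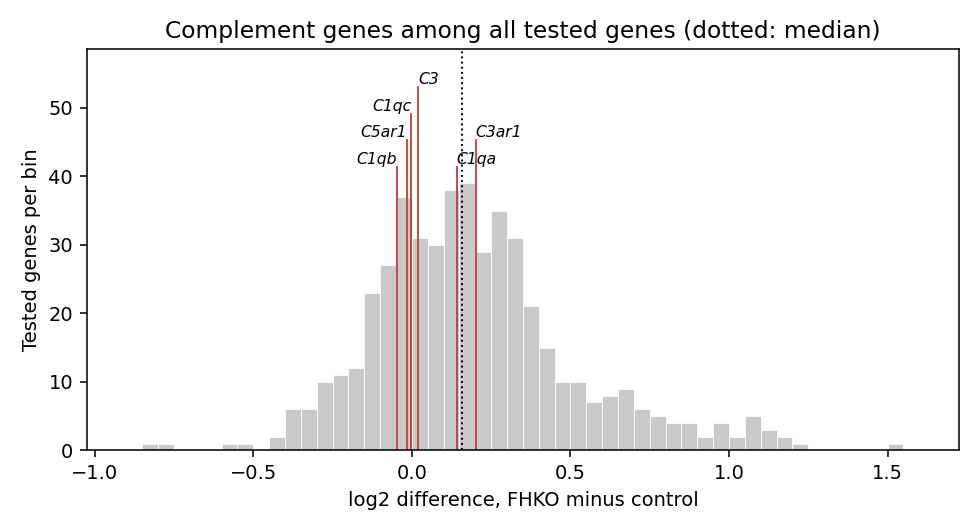
Number of tested genes per bin of the log2 difference, FHKO minus control, for all 490 tested genes (grey), with the 6 tested complement genes as red lines and the median gene (0.16) dotted. C1qb, C5ar1, C1qc and C3 lie near 0, C1qa just below the median gene and C3ar1 just above it.

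How the complement genes are read depends on what is held equal between libraries. With library medians set equal, all tested differences moved down, the median tested gene to -0.13, and 2.86% of tested genes were called. All 6 complement genes then lay below 0: C1qb at -0.34, C5ar1 at -0.31, C1qc at -0.30, C3 at -0.27, C1qa at -0.15 and C3ar1 at -0.10. None passed (limma, smallest adjusted p = 0.177 for C1qb). With the positive-control rows set equal all 6 lay above 0, from 0.15 for C1qb to 0.40 for C3ar1, and none passed (limma, smallest adjusted p = 0.725).

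**Figure D3:**
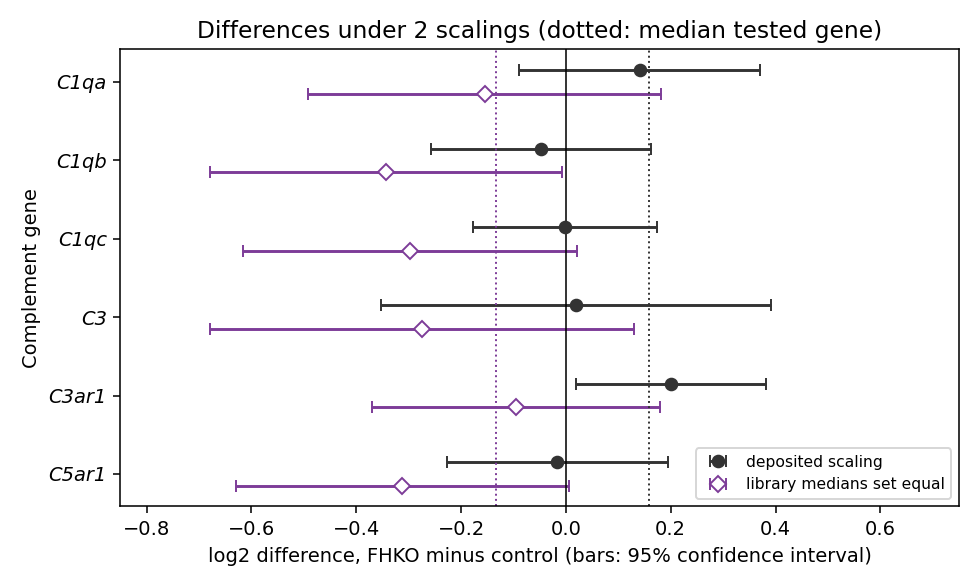
log2 difference, FHKO minus control, of the 6 tested complement genes with 95% confidence intervals, under the deposited scaling (filled circles) and with library medians set equal (open diamonds); dotted lines mark the median tested gene under each (0.16 and -0.13). All 6 points shift down by nearly the same amount, as this scaling does to every gene, so their unchanged order is not a second result.

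Ratios of genes within a library do not depend on the scaling, although their size depends on the probes. The log2 ratio of C1qa to C1qb was -2.32, -2.47 and -2.36 in FHKO libraries, against -2.62, -2.58 and -2.51 in control libraries. All FHKO ratios lay above all control ratios, a difference of 0.19 between group means (exact two-sided permutation test, p = 0.1, the smallest that 3 against 3 libraries allow). The log2 ratio of C1qa to C1qc was -2.06, -2.30 and -2.30 in FHKO libraries, against -2.37, -2.37 and -2.34 in control libraries. This difference was 0.14 (exact permutation p = 0.1) and fell to 0.06 without FHKO 1, the library with the highest C1qa. C1qb and C1qc kept the most even ratio of the 15 pairs among the 6 detected genes, with an SD of 0.07 over the libraries. Their log2 ratio was 0.26, 0.17 and 0.06 in FHKO libraries, against 0.24, 0.21 and 0.17 in control libraries, a difference of -0.05 (exact permutation p = 0.6).

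The ratio of C1qb to C3ar1 had a mean log2 ratio of 0.46 ± 0.07 in FHKO and 0.70 ± 0.23 in control libraries (SD, n = 3 each). Control 3 lay within the FHKO range, and the difference of -0.25 had an exact permutation p = 0.2. It was -0.15 without control 1 and -0.37 without control 3. The ratio of C3ar1 to C5ar1 averaged 0.42 ± 0.14 in FHKO and 0.21 ± 0.22 in control libraries, a difference of 0.22 with overlapping groups (exact permutation p = 0.3), which was 0.092 without control 1. Groups did not overlap for 2 of the 15 pairs, C1qa with C1qb and C1qa with C1qc, beside 25.4% of all pairs of tested genes. Adjusted over the 15 pairs the smallest p was 0.75. These pairs share genes and libraries and are not independent.

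**Figure D4:**
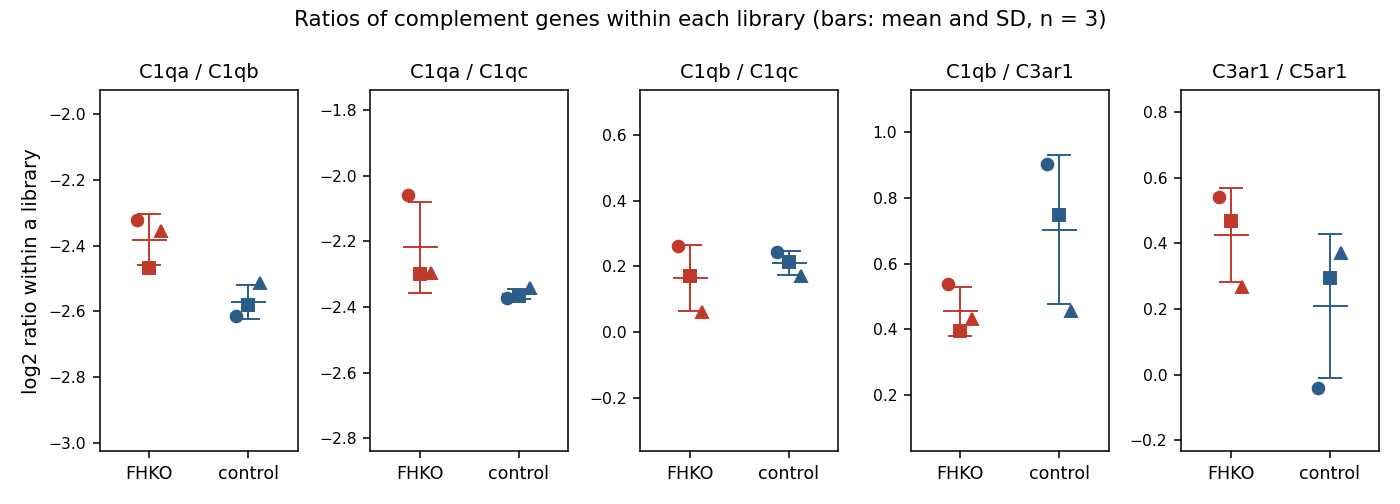
log2 ratio within each library for 5 pairs of complement genes in FHKO and control macrophages; circles, squares and triangles are libraries 1, 2 and 3 of a group, and bars are the mean and SD. The ratios of C1qa to C1qb and of C1qa to C1qc do not overlap between groups (differences of 0.19 and 0.14), and the other 3 pairs overlap. Of all pairs of tested genes, 25.4% do not overlap.

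Likeness of pattern was measured as the root mean square distance between log2 profiles over the 6 libraries, each centred on its mean, against the 484 tested genes that are not members. For C1qb the nearest genes were Myd88, an adaptor of Toll-like receptors (0.05), Psmb8, a subunit of the immunoproteasome (0.05), and Pfdn6, a prefoldin subunit (0.06), beside a median distance of 0.24. For C1qc they were the MHC class I gene H2-K1, Rhog and Pfdn6 (0.04 each), and for C1qa they were Cd99, the chemokine gene Cxcl16 (0.05 each) and H2-M3 (0.07). For C3ar1 they were Ifnar1, a chain of the type I interferon receptor (0.03), Il10ra, the interleukin-10 receptor chain, and the splicing factor gene Sf3a3 (0.05 each). For C5ar1 they were Tgfb1 (0.03), Stat6 and Laptm5 (0.04 each), and for C3 they were Ceacam1 (0.08), Nubp1 and Vamp2 (0.09 each). C1qb and C1qc lay 0.0665 from each other, farther than the nearest genes named here for either, so their even ratio is not particular to this pair. Profiles that vary little lie close to each other by construction, and C1qc itself deviated from its mean by a root mean square of 0.06 only.

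Of a wider list of 49 complement genes beside the members, the panel held 5. These were Fcnb, a recognition protein of the lectin pathway, the integrin genes Itgam, Itgax and Itgb2, whose products form receptors for C3 fragments, and Calr, which encodes a chaperone that can act as a docking protein for C1q. None of the 16 regulator genes on that list was on the panel. Fcnb was detected in 0 of 6 libraries, at 2.76 to 11.2 normalised counts in FHKO and 8.08 to 11.6 in control. Of the 4 tested genes 0 passed limma in either direction, beside 0.204% of all 490 tested genes. Their median log2 difference was -0.12, beside 0.16 over all tested genes.

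Itgam had a log2 difference of 0.16, Itgb2 of -0.13, Calr of -0.10 and Itgax of -0.26, with limma adjusted p of 0.321 to 0.457. Itgax, the alpha chain of the receptor also called CD11c, was at 623, 735 and 626 in FHKO libraries, against 963, 670 and 758 in control libraries, and control 1 lay highest. Its difference was -0.11 without control 1. Without control 1 Itgb2 had -0.040 and Calr -0.032, and without single libraries Itgam ranged from 0.096 (without FHKO 3) to 0.26 (without FHKO 1). With library medians set equal Itgax had -0.55 (limma, adjusted p = 0.0692), and Itgam turned to -0.14.

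Markers of other cell types were low in both groups. Of 8 neutrophil markers on the panel 2 were detected in all libraries, S100a8 and Csf3r, and the list summed to 283 to 375 normalised counts in FHKO and 300 to 343 in control libraries. Of 4 dendritic, 1 B cell, 4 mast cell or basophil and 4 fibroblast or endothelial markers 0 were detected in all libraries, and no T cell marker of the list was on the panel.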

How the data were processed

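RNA of mouse bone-marrow-derived macrophages was measured on a panel of 753 gene rows and 14 control rows (8 negative, 6 positive) in 3 FHKO and 3 control libraries, grouped by sample title. Platform, software and versions are not given in the sources used here. Deposited gene values are a normalised signal: as read from the values, each is a whole count times 1 factor per library, and 99.6% were whole multiples within 0.0051. The authors' factors set the geometric mean of 16 of 20 reference genes equal (SD of 6.82e-06 on the log2 scale). Control rows carried no factor. A few values (0 to 3 per library) stood at a floor of 1.

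Genes at 20 or more in at least 3 of 6 libraries (490) were tested on log2(value + 1), which understates changes of low genes, with limma 3.58.1 (lmFit, eBayes with trend) in R 4.3.3, two-sided, without block or covariate. P-values were adjusted by Benjamini-Hochberg over all 490 genes at 0.05. Within-library ratios were compared with exact permutation tests. Count models were not run, because the recovery of whole counts did not pass a check in 2 libraries, FHKO 2 and control 2. Recovered counts of all libraries were still used for detection, library shares and counting error. Symbols matched the RefSeq table directly for 743 genes and by synonym for 9. The genes named are the 8 members, the other complement genes on the panel, the 3 nearest profiles of each detected member, and the ends of each marker list. Csf1r, Adgre1 and Il1rn were named after their values were seen. Members and lists were chosen with earlier results of these data known. Library pairs within a group differed beyond counting noise (chi-square over degrees of freedom, 10.9 to 37.6). Intervals cover the spread between libraries. The procedure was tested on simulated data. Figures were drawn with matplotlib 3.10.9.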

Additional observations from a re-analysis of the deposited data

How the results depend on the processing

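Over 17 alternatives, no complement gene passed limma's threshold, and 6 of the 8 were detected also with the highest negative-control row as the limit. Another scaling by library medians, reference genes or positive-control rows moves all genes by nearly the same amount, so the turns under it are that common offset and say nothing of single genes. With library medians set equal C1qa turned to -0.15, C3 to -0.27, C3ar1 to -0.10 and Itgam to -0.14. With all 20 reference genes set equal C1qc had 0.015 and C5ar1 0.0007. With positive-control rows set equal C1qb had 0.15, C1qc 0.20, C5ar1 0.19, Itgb2 0.070 and Calr 0.10, and after quantile normalisation C3 had -0.30. Leaving out 1 library gave C1qc -0.061 to 0.035, C3 -0.11 to 0.11 and C5ar1 -0.075 to 0.047, and the log2 ratio of C1qb to C1qc a difference of -0.095 to 0.0063. The turns without 1 library are of differences near 0, and the cause of the turn after quantile normalisation was not tested. The 1 gene called over the panel became 14 with library medians set equal, 0 with the replicate block, and 0 to 3 without 1 library. Same-numbered libraries of the groups deviated with correlations of 0.26, -0.03 and -0.29. Differently numbered libraries ranged from -0.45 (FHKO 2 with control 1) to 0.53 (FHKO 2 with control 3). With 3 libraries per group, each centred on its group mean, these values cannot settle whether the numbers pair the libraries. The block gave C3ar1 a limma adjusted p of 0.301 (unadjusted p = 0.0863). The 2 pairs of members with separate ratios became 2 to 5 without 1 library. Groups of fewer libraries separate more readily, and the share over all pairs of tested genes was not computed for these smaller sets. The negative-control subtraction was chosen after seeing the data. The edgeR and DESeq2 alternatives were not run. C4a was detected in 0 of 6 libraries and Hc in 1 of 6, and the part of depth in this was not tested.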
